A study of Mus musculus with 6 samples.

Results

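The transcripts described here are those of 10 mouse genes that make, phosphorylate or use nicotinamide adenine dinucleotide (NAD). They were taken by gene symbol from a count table of 49315 genes, and each of the 10 symbols matched 1 row. Messenger RNA was sequenced from the gastrocnemius, a calf muscle, of male mice of the inbred strain C57BL6J. At 5 months of age the muscle received an AAV9 vector (adeno-associated virus) by injection, and it was harvested 5 months later. In the AAV9-HSA-CAAHR group (3 libraries, replicates 31, 34 and 36) the virus carried a constitutively active aryl hydrocarbon receptor (CAAHR), the mouse AHR coding sequence without its ligand-binding domain. In the AAV9-HSA-GFP group (3 libraries, replicates 42, 43 and 46) it carried green fluorescent protein. Expression of both transgenes came from HSA, the promoter of human skeletal actin. It works in mature muscle fibres, so other cells of the muscle were not meant to express them, and the share of fibres that did was not measured here. All muscles received a virus, and uninjected muscle was not analysed here.

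NAD carries electrons between metabolic enzymes, and it is also consumed by sirtuins, poly(ADP-ribose) polymerases and NAD glycohydrolases, so cells remake it continuously. In muscle most of it is thought to come from salvage of vitamin B3 forms. Nampt turns nicotinamide, the product of the consuming enzymes, into nicotinamide mononucleotide. The kinases Nmrk1 and Nmrk2 make the same mononucleotide from nicotinamide riboside, and Naprt starts the parallel Preiss-Handler route from nicotinic acid. Nmnat enzymes complete the dinucleotide, Nadk and Nadk2 phosphorylate it to NADP in the cytosol and mitochondria, and Sirt1 and Sirt3 use it to remove acyl groups from nuclear and mitochondrial proteins. AHR is a transcription factor known for inducing Cyp1a1 and Tiparp, and the latter encodes an enzyme that consumes NAD.

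Promoter sequences (250 bases before to 50 after a gene's start) came from RefSeq on GRCm38.p6. Of the 10 genes, 8 matched, with 11 promoters between them; Naprt and Nadk2 did not. Both strands were searched for GCGTG, the core of the site that AHR and its partner ARNT bind, for the longer form TNGCGTG, which contains that core, and for CACGTG, the E-box of clock factors, which does not contain it. The core was present in 5 of the 11 promoters and in 32.4% of all 32851 promoters of this length. The longer form was present in 1 of 11 and in 5.07% of all, and the E-box in 2 of 11 and in 7.15% of all. The promoters of 4 genes are printed 5′ to 3′ with any of these matches in capitals, a core on the other strand reading CACGC. Nmrk2 is shown because its transcript fell, Nampt because its promoter held the most cores, Nadk because it held the longer form (its second promoter) and Sirt1 because it held both the core and the E-box.
Nmrk2 (chr10:81201988-81202287, minus strand): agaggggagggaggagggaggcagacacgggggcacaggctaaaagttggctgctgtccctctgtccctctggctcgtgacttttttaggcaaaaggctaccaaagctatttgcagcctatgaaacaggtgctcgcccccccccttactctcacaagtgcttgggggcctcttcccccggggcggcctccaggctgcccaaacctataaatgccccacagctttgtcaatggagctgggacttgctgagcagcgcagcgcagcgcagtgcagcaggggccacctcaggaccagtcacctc
Nampt (chr12:32820085-32820384, plus strand): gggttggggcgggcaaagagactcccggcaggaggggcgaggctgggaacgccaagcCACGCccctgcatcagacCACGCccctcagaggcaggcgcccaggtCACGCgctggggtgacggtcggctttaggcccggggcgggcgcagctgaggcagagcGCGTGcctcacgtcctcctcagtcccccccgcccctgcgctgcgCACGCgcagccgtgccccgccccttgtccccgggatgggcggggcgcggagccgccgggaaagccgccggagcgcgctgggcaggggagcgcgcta
Nadk (chr4:155563565-155563864, plus strand): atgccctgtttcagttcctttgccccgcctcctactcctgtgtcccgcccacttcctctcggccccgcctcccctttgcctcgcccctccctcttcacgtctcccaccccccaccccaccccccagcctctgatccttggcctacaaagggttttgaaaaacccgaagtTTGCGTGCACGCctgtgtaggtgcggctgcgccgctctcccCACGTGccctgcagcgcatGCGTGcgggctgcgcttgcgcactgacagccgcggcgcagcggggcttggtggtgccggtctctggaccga
Sirt1 (chr10:63338986-63339285, minus strand): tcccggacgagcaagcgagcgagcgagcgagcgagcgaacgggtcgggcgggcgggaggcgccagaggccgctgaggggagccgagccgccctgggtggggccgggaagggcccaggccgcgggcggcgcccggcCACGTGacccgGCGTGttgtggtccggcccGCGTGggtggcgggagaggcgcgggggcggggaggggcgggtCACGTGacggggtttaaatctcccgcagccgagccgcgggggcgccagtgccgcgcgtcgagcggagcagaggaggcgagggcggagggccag
The Nmrk2 promoter held none of the 3 motifs, whereas that of Nampt held 5 cores, that of Nadk 3 cores and 1 E-box, and that of Sirt1 2 cores and 2 E-boxes. These matches are letters in a window and were not tested for binding.

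Library totals ranged from 43432994 to 58825752 counts, and the 10 genes together held between 0.0239% and 0.0290% of them. Per-library values are CPM (a gene's counts as a share of its library's total, the usual per-million unit) scaled by TMM, the trimmed mean of M values. The delivered gene was checked first. Ahr was at 9.97, 22.8 and 17.3 CPM in CAAHR replicates 31, 34 and 36 and at 2.47, 2.55 and 1.87 CPM in GFP replicates 42, 43 and 46, so every library matched its label. Delivered and endogenous Ahr share these counts. Cyp1a1 was between 1231 and 1680 CPM in CAAHR muscles and between 5.85 and 7.74 CPM in GFP muscles, and Cyp1a1 and the other 4 listed AHR targets were all called higher.

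The comparison asked which of these transcripts differed in muscle whose fibres expressed active AHR. Naprt rose and Nmrk2 fell in AAV9-HSA-CAAHR muscles, each by more than 2-fold, and the other 8 genes did not pass the test. The edgeR quasi-likelihood test was fitted to all 15847 genes that passed the filter on low counts, and p-values were adjusted over all of them (Benjamini-Hochberg, threshold 0.05). All 10 genes passed the filter. Of the 10, 1 was called higher and 1 lower, against 7.6% of all tested genes called (3.04% higher and 4.57% lower). Both calls were also over 2-fold, as were 3.48% of all tested genes. The groups did not overlap for 5 of the 10 genes (Naprt, Nmrk2, Nmnat1, Nadk and Sirt1) and for 29.9% of all tested genes. The median log2 fold change of the 10 was 0.02 and that of all tested genes 0.01.

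**Figure D1:**
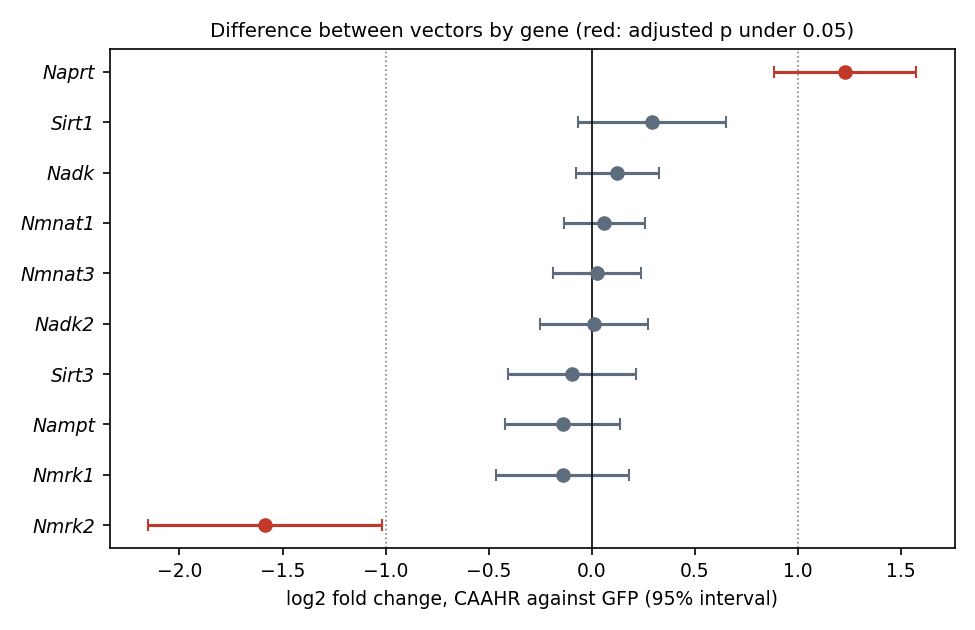
Log2 fold change of each gene, CAAHR against GFP (x axis), with its 95% interval (horizontal bar) from the edgeR fit, 3 libraries per group. Naprt at 1.23 and Nmrk2 at -1.59 (red) had an adjusted p under 0.05, the intervals of the other 8 genes cross 0, and dotted lines mark a 2-fold change.

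Among the genes that open a salvage route, Naprt encodes nicotinate phosphoribosyltransferase (ENSMUSG00000022574, chromosome 15, 75890956 to 75894481, minus strand, GRCm38). Naprt was at 8.19, 8.09 and 9.53 CPM in CAAHR replicates 31, 34 and 36, and at 3.11, 3.65 and 4.23 CPM in GFP replicates 42, 43 and 46. The lowest CAAHR library lay well above the highest GFP library. The means were 8.601 ± 0.807 CPM (SD, n = 3) and 3.66 ± 0.561 CPM, with log2 fold change 1.23 ± 0.15 (SE; edgeR adjusted p 0.00186). This is a 2.35-fold rise. The call was lost with a covariate for slow-fibre transcripts (log2 fold change 0.97, edgeR adjusted p 0.0674) and was kept under the other 14 alternatives, with adjusted p between 1.44e-11 and 0.0133.

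Nmrk2, the nicotinamide riboside kinase known to be enriched in muscle (ENSMUSG00000004939, chromosome 10, 81198170 to 81202051, minus strand), moved the other way. It was at 14.9, 10.1 and 18.6 CPM in CAAHR replicates 31, 34 and 36, and at 34.8, 42.997 and 53.0 CPM in GFP replicates 42, 43 and 46. The groups were well separated, although Nmrk2 varied most of the 10 genes within each group (coefficient of variation 29.5% and 20.9%). The means were 14.5 ± 4.29 CPM (SD, n = 3) and 43.6 ± 9.12 CPM, with log2 fold change -1.59 ± 0.24 (SE; edgeR adjusted p 0.0103). Its level fell by 66.7%. Without CAAHR replicate 31 the log2 fold change was -1.61 and the edgeR adjusted p was 0.0515, and in the other 14 alternatives the call was kept, with adjusted p between 1.22e-17 and 0.0371. Adding the slow-fibre covariate moved the estimate to -2.51.

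Nampt, the first enzyme of nicotinamide salvage (ENSMUSG00000020572, chromosome 12, 32819545 to 32853349, plus strand), had the highest CPM of the 10 genes in every library, and its difference did not pass the test. It was at 127, 103 and 105 CPM in CAAHR replicates 31, 34 and 36, and at 117, 141 and 112 CPM in GFP replicates 42, 43 and 46. The groups overlapped, with the highest GFP library 43 above every CAAHR library and CAAHR replicate 31 above 2 GFP libraries. The log2 fold change was -0.14, with a 95% interval from -0.42 to 0.14. Nmrk1, the kinase found in most tissues (ENSMUSG00000037847, chromosome 19, 18631950 to 18652428, plus strand), was between 4.19 and 5.36 CPM in CAAHR muscles and between 4.99 and 5.36 CPM in GFP muscles. Its log2 fold change was also -0.14, with an interval from -0.47 to 0.18, so a fall of the size seen for Nmrk2 lies outside it.

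**Figure D2:**
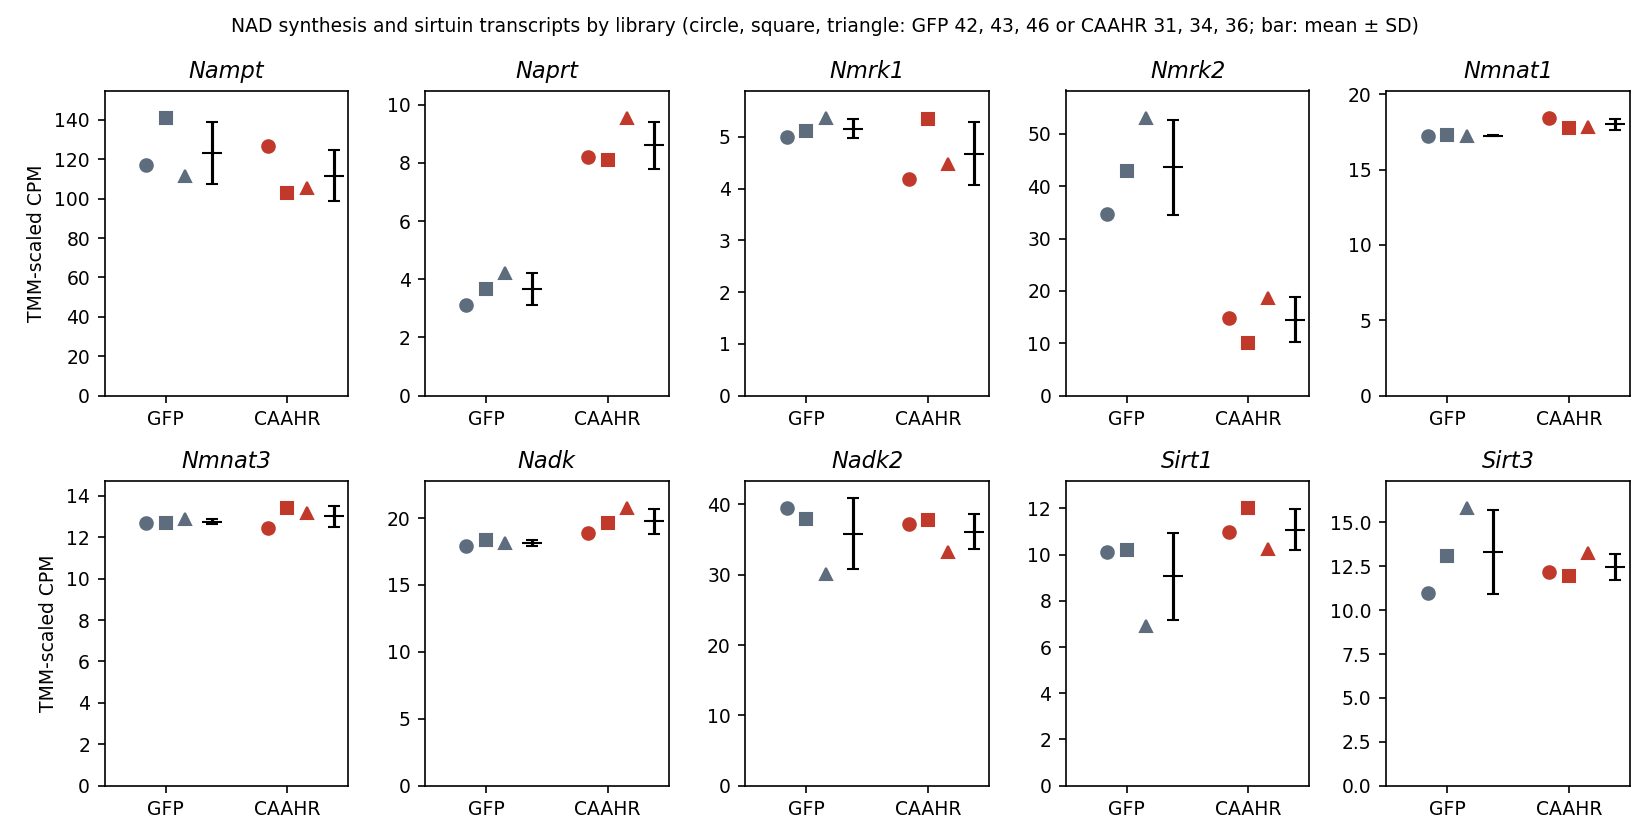
TMM-scaled CPM (y axis, from 0, own scale per panel) of each of the 10 genes in the 3 GFP libraries (grey) and 3 CAAHR libraries (red), with mean ± SD as a bar. The CAAHR points lie above the GFP points for Naprt and below them for Nmrk2, and the other panels overlap or lie close together.

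Levels of different genes were compared per length, as CPM per kilobase of merged exon (RPKM, CPM divided by kilobases). On this scale the 4 genes that open a salvage route summed to 37.7, 30.7 and 36.2 RPKM in CAAHR replicates 31, 34 and 36, and to 44.6, 54.0 and 53.9 RPKM in GFP replicates 42, 43 and 46. Nampt took 48.2% ± 6.23 (SD, n = 3) of that sum in GFP muscles and 63.5% ± 5.09 in CAAHR muscles, while its own RPKM was 24.4 ± 3.08 and 22.1 ± 2.58. Its share thus differed while its level did not pass the test. Nmrk2 took 46.004% ± 6.07 in GFP muscles and 22.2% ± 5.13 in CAAHR muscles. Naprt took 3.07% ± 0.244 in GFP muscles and 10.6% ± 1.14 in CAAHR muscles. Nmrk1 took 2.77% ± 0.242 in GFP muscles and 3.70% ± 0.904 in CAAHR muscles. These shares contain the genes already tested and are given as a description. With the longest transcript in place of merged exons, the mean shares of Nmrk2 were 42.3% and 19.7% and those of Naprt 3.48% and 11.5% in GFP and CAAHR muscles. Those of Nmrk1 were 4.83% and 6.20%, so whether Nmrk1 or Naprt took the smallest share in GFP muscles depended on the length used.

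**Figure D3:**
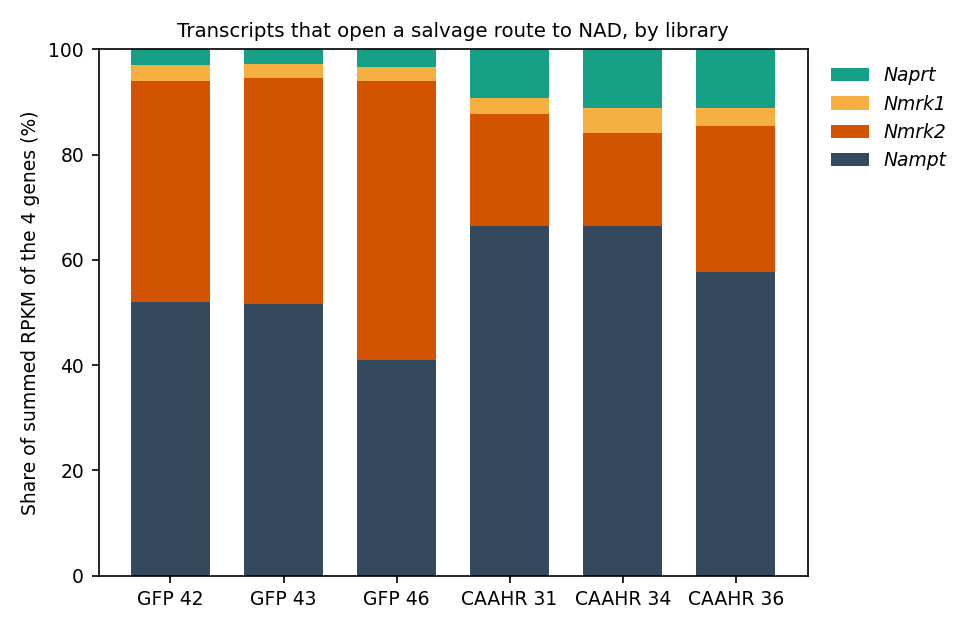
Share (%, y axis) of the summed RPKM of Nampt, Nmrk2, Nmrk1 and Naprt taken by each gene (colours) in each library (x axis). Nmrk2 fills between 42.1% and 53.0% of the GFP bars and between 17.7% and 27.8% of the CAAHR bars, and Naprt between 2.89% and 3.35% against between 9.26% and 11.2%.

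Ratios of these genes per length within libraries reuse the values already tested and are also given only as a description. The ratio of Nmrk2 to Nmrk1 is given first. It was 7.05, 3.75 and 8.28 in CAAHR replicates 31, 34 and 36, and 13.9, 16.7 and 19.7 in GFP replicates 42, 43 and 46. Nmrk2 thus stayed the more abundant of the 2 transcripts per length in every library. The size of the ratio depended on the length used. With the longest transcript, mean RPKM in CAAHR and GFP muscles was 7.83 and 23.5 for Nmrk2 and 2.41 and 2.66 for Nmrk1. The ratio of Nampt to Nmrk2 was between 2.07 and 3.75 in CAAHR muscles and between 0.773 and 1.23 in GFP muscles, where GFP replicate 46 held more Nmrk2 than Nampt per length. The ratio of Nampt to Naprt was between 5.12 and 7.18 in CAAHR muscles and between 12.2 and 17.9 in GFP muscles.

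None of the genes for completing and phosphorylating NAD was called. Nmnat1 encodes the nuclear adenylyltransferase (ENSMUSG00000028992, chromosome 4, 149467572 to 149485202, minus strand). It was at 18.4, 17.7 and 17.8 CPM in CAAHR replicates 31, 34 and 36, and at 17.2, 17.3 and 17.3 CPM in GFP replicates 42, 43 and 46. Its groups did not overlap, but the log2 fold change of 0.06 was below its SE of 0.09 (edgeR adjusted p 0.733). Nmnat3, described as the mitochondrial form (ENSMUSG00000032456, chromosome 9, 98287435 to 98420438, plus strand), was between 12.5 and 13.4 CPM in CAAHR muscles and between 12.7 and 12.9 CPM in GFP muscles. Its log2 fold change was 0.03, with a 95% interval from -0.19 to 0.24. The ratio of Nmnat1 to Nmnat3 per length of merged exons was between 2.18 and 2.43 across all 6 libraries. Its size depended on the length used. With the longest transcript, mean RPKM in CAAHR and GFP muscles was 6.77 and 6.49 for Nmnat1 and 6.005 and 5.89 for Nmnat3, so the 2 genes lay much closer.

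Nadk, the cytosolic NAD kinase (ENSMUSG00000029063, chromosome 4, 155562378 to 155591001, plus strand), was at 18.9, 19.6 and 20.7 CPM in CAAHR replicates 31, 34 and 36, and at 17.9, 18.4 and 18.1 CPM in GFP replicates 42, 43 and 46. The lowest CAAHR library was just above the highest GFP library, and the log2 fold change of 0.12 did not pass (edgeR adjusted p 0.446). Nadk2, the mitochondrial NAD kinase (ENSMUSG00000022253, chromosome 15, 9071260 to 9110891, plus strand), was between 33.2 and 37.9 CPM in CAAHR muscles and between 30.1 and 39.5 CPM in GFP muscles. Its log2 fold change of 0.01 was the smallest of the 10, with a 95% interval from -0.25 to 0.27.

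Neither sirtuin among the 10 was called. Sirt1, the nuclear deacetylase (ENSMUSG00000020063, chromosome 10, 63319005 to 63381704, minus strand), was at 10.99, 12.0 and 10.2 CPM in CAAHR replicates 31, 34 and 36, and at 10.1, 10.2 and 6.89 CPM in GFP replicates 42, 43 and 46. The gap between the groups was narrow, and GFP replicate 46 stood low. The log2 fold change was 0.29 ± 0.16 (SE), and the edgeR adjusted p 0.304, and the estimate was 0.13 without GFP replicate 46. Sirt3, the main mitochondrial deacetylase (ENSMUSG00000025486, chromosome 7, 140863666 to 140882309, minus strand), was between 11.9 and 13.3 CPM in CAAHR muscles and between 11.004 and 15.8 CPM in GFP muscles. Its log2 fold change was -0.10 and turned to 0.05 without GFP replicate 46. Across the 8 genes that were not called, log2 fold changes lay between -0.14 and 0.29, and no 95% interval reached beyond a 1.57-fold change in either direction. These intervals bound the differences and do not show that the groups were alike.

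Ordered by RPKM, Nampt stood first in GFP muscles (24.4 ± 3.08) beside Nmrk2 (23.5 ± 4.92), and the ranges of these 2 overlapped. Nadk2 (range 5.88 to 7.71), Nmnat1 (5.68 ± 0.0137) and Nadk (4.84 ± 0.0586) followed, each range clear of the next. Nmnat3 (2.55 ± 0.0195), Sirt3 (2.23 ± 0.403), Sirt1 (1.699 ± 0.352), Naprt (1.56 ± 0.239) and Nmrk1 (1.40 ± 0.0508) came last, with each range overlapping the next. In CAAHR muscles Naprt moved from place 9 to place 6, Nmnat3, Sirt3 and Sirt1 each stood 1 place lower, and the other genes kept their places. Nmrk2 (7.83 ± 2.31), at place 2 in both groups, then overlapped Nadk2 (7.05 ± 0.486). Naprt (3.67 ± 0.344) stood clear of Nmnat3 (2.60 ± 0.0981) and below Nadk (5.27 ± 0.246). Sirt3 (2.09 ± 0.120) and Sirt1 (2.08 ± 0.166) overlapped, and Nmrk1 (1.27 ± 0.164) stood last. Some of these places depended on the length used. With the longest transcript in place of merged exons, Nmrk2 stood at place 3 in CAAHR muscles, below Nadk2. On that length Naprt moved from place 10 in GFP muscles to place 7 in CAAHR muscles, where it stood below Nmnat3.

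Parts of some of these genes are shared with neighbours, and whether the libraries kept strand was not stated. Exons of Naprt share 277 bases (11.8% of its merged exons) with Eef1d, which encodes a translation elongation factor on the same strand. Eef1d was at 95.7 ± 6.77 CPM (SD, n = 3) in CAAHR muscles and 100.9 ± 10.04 CPM in GFP muscles (log2 fold change -0.08, edgeR adjusted p 0.727). Exons of Nmrk2 share 270 bases (14.6%) with the antisense transcript Atcayos, which was at 108.6 ± 25.2 CPM and 115.3 ± 19.5 CPM, with a log2 fold change of -0.09. Atcayos thus held more counts than Nmrk2 in every library, and reads in the shared bases cannot be told apart without strand. Sirt3 shares exon bases with Ric8a and Psmd13, and Sirt1 with Gm16145, which had 1 count in 1 library.

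The other genes of NAD metabolism were taken from 6 lists with 71 genes, of which 61 passed the filter on low counts. By the edgeR test 1 of the 61 rose and 5 fell, which is 9.84% against 7.6% of all tested genes. An unadjusted p under 0.05 was found for 23 of the 61, a larger share than the 23.9% of all tested genes. This difference in share was not tested. The list of other synthesis genes held 11 genes, mostly of the pathway from tryptophan, and 5 were tested. None was called by edgeR, DESeq2 or limma-voom, and 0 had an unadjusted p under 0.05. Most of this list was at the edge of detection. Nadsyn1, which completes the Preiss-Handler route that Naprt opens, was at 2.78 ± 0.0969 CPM in CAAHR muscles and 2.54 ± 0.379 CPM in GFP muscles (log2 fold change 0.13). The smallest p of the list belonged to Ido1, a tryptophan dioxygenase gene, at 0.118 ± 0.0865 CPM and 0.206 ± 0.139 CPM. Kynu, a gene of the tryptophan pathway, had 8 counts in GFP replicate 43 and none in the other 5 libraries.

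Of 10 genes for precursor handling and transport 8 were tested, and 1 fell. Slc7a5, which encodes a carrier of large neutral amino acids such as tryptophan, was at 2.71, 2.42 and 2.49 CPM in CAAHR replicates 31, 34 and 36, and at 4.46, 4.13 and 5.95 CPM in GFP replicates 42, 43 and 46. The groups were clearly apart, with a log2 fold change of -0.93 ± 0.18 and an edgeR adjusted p of 0.0144. The call was lost when CAAHR replicate 36 or GFP replicate 46 was left out and with the slow-fibre covariate. Another 4 genes of the list had an unadjusted p under 0.05, all with negative values: Nnmt (-1.19), which encodes the methyltransferase that clears nicotinamide, Nt5e (-0.86), Pnp (-0.82) and Slc29a1 (-0.33). Slc25a51, the mitochondrial NAD carrier gene, had a log2 fold change of 0.09. The count of called genes in this list was 2 by DESeq2, and the same number when CAAHR replicate 31 or GFP replicate 43 was left out.

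All 5 other sirtuins were tested and 0 were called by edgeR, DESeq2 or limma-voom, with 0 at an unadjusted p under 0.05. Their log2 fold changes ran from -0.00331 for Sirt5 to 0.30 for Sirt7, which had the smallest p. Sirt2 was the sirtuin with the most counts, at 112 ± 7.86 CPM in CAAHR muscles and 101.1 ± 2.67 CPM in GFP muscles (log2 fold change 0.15). Of 13 partners and substrates of sirtuins 12 were tested and 0 were called by edgeR, with 2 at an unadjusted p under 0.05, whereas DESeq2 called 2 and limma-voom 1. Foxo3, a transcription factor that Sirt1 deacetylates, was nearest to the threshold (log2 fold change 0.44, edgeR adjusted p 0.0526), and 2 genes of the list were called without CAAHR replicate 34. Ppargc1a, the coactivator of mitochondrial genes, had a log2 fold change of -0.29.

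Among 20 other genes of NAD-consuming or ADP-ribosylating enzyme families 19 were tested, of which 1 rose and 3 fell. An unadjusted edgeR p under 0.05 was found for 8 of the 19, against 23.9% of all tested genes. Tiparp, an AHR target that transfers ADP-ribose, was at 97.1, 127 and 119 CPM in CAAHR replicates 31, 34 and 36, and at 31.4, 22.4 and 24.9 CPM in GFP replicates 42, 43 and 46. Every CAAHR library lay far above every GFP library, and the log2 fold change was 2.12 ± 0.15 with an edgeR adjusted p of 1.57e-04. Art3 (log2 fold change -0.70, adjusted p 0.00410), Art1 (-0.45, 0.0475) and Parp14 (-0.68, 0.0475) fell by the edgeR test. Art1 and Art3 encode members of the ADP-ribosyltransferase family at the surface of muscle cells, and Parp14 is an interferon-responsive member of the polymerase family. Tiparp kept its call in all 15 alternatives, Art3 in 14, Art1 in 8 and Parp14 in 5. The count of called genes in this list was 2 when any library other than CAAHR replicate 34 was left out. Parp1, the polymerase that uses most NAD after DNA damage, was at 82.2 ± 8.99 CPM and 82.0 ± 4.82 CPM, with a log2 fold change of 0.00. Cd38, the main NAD glycohydrolase gene, had a log2 fold change of -0.46 and did not pass (edgeR adjusted p 0.113).

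**Figure D4:**
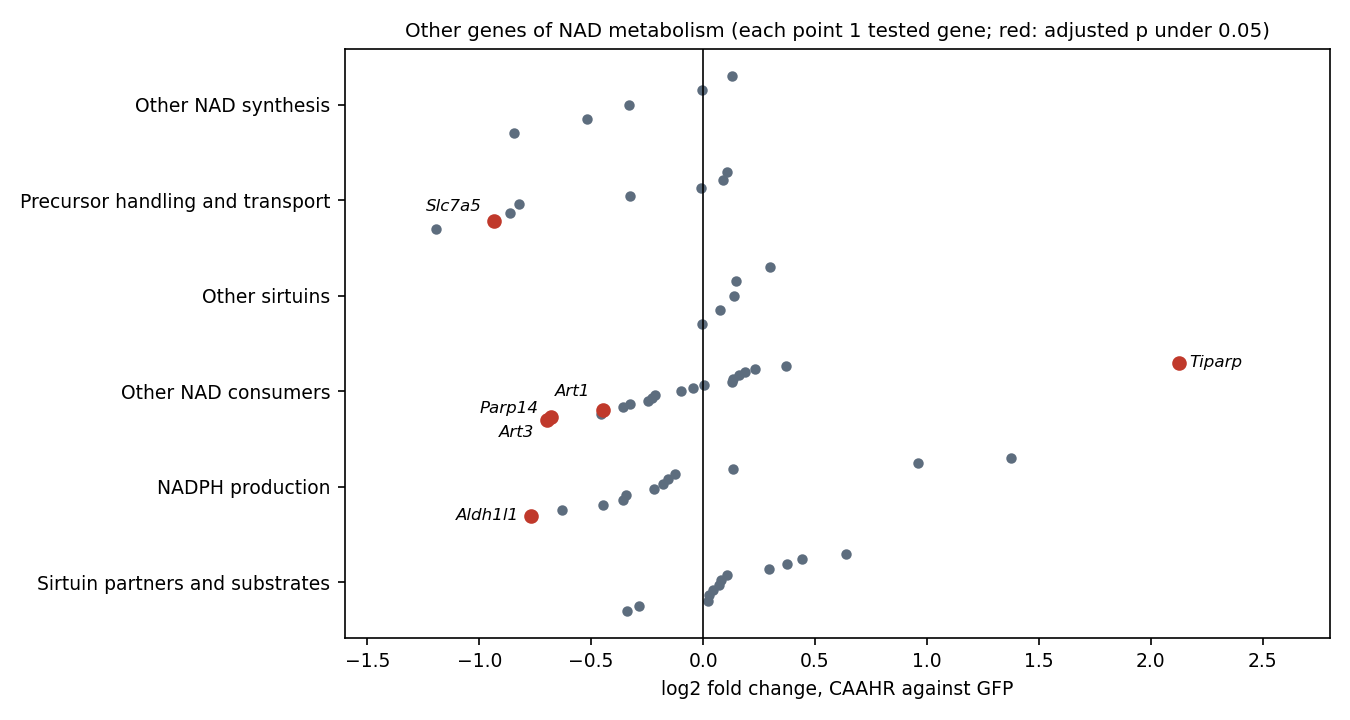
Log2 fold change, CAAHR against GFP (x axis), of each tested gene in 6 lists of NAD metabolism (y axis). Tiparp at 2.12 lies furthest to the right, followed by Idh2 at 1.38, which was not called. The other called genes (red) are Slc7a5, Art3, Parp14, Art1 and Aldh1l1, between -0.93 and -0.45.

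Of 12 genes whose products make NADPH, the reduced form of the dinucleotide that Nadk and Nadk2 begin, all were tested and 1 fell. By the edgeR test 8 of the 12 had an unadjusted p under 0.05, in both directions, against 23.9% of all tested genes. Aldh1l1, a folate enzyme gene, was at 5.12, 4.64 and 5.43 CPM in CAAHR replicates 31, 34 and 36, and at 8.12, 7.67 and 10.05 CPM in GFP replicates 42, 43 and 46. The groups did not overlap, with a log2 fold change of -0.77 ± 0.14 and an edgeR adjusted p of 0.0136, and the call was lost without GFP replicate 46 and with the slow-fibre covariate. Idh2 and Nnt, both mitochondrial, had the highest values of the list (log2 fold changes 1.38 and 0.96) and did not pass (edgeR adjusted p 0.160 and 0.177). C57BL/6J mice are known to carry a deletion within Nnt. The count of called genes in this list was 4 without CAAHR replicate 34 and 2 without CAAHR replicate 31.

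Markers of fibre type and of other cells differed between the same libraries, and their part in the values above was not tested. Slow-fibre markers summed to between 673 and 2996 CPM in CAAHR muscles and between 237 and 487 CPM in GFP muscles. These sums did not overlap, so the slow-fibre covariate runs with the group. A fit with it cannot tell fibre type from vector, whether a call was kept or lost. Of these 9 genes edgeR called 0, with 8 at an unadjusted p under 0.05, while DESeq2 called 8 and limma-voom 9. Within each group the lowest Nmrk2 library was also the lowest in slow-fibre markers, CAAHR replicate 34 (673 CPM) and GFP replicate 42 (237 CPM), whereas the group with more slow-fibre transcripts had less Nmrk2. Of 11 fast-fibre genes 3 fell (sums between 148587 and 204846 CPM against between 209491 and 216528 CPM). In that list 2 genes had positive log2 fold changes, Myh1 (0.997) and Myh2 (1.38), and neither was called. Of 9 general fibre genes 1 rose (Dmd) and 2 fell (Acta1 and Ckm), and all 9 were detected, as the tissue label requires. Markers of blood-derived cells differed as well, and without uninjected muscle the values do not say which group departed from it. Of 8 B and plasma cell genes 5 fell (sums 11.2 to 19.8 CPM against 145 to 579 CPM). Of 7 neutrophil genes 5 were tested and 4 fell (2.33 to 3.30 CPM against 7.05 to 17.0 CPM), while Mpo had no more than 2 counts in any library. Of 9 T and NK cell genes 3 were tested and 1 fell (1.12 to 1.70 CPM against 2.69 to 9.97 CPM), while Gzmb had 3, 19 and 2 counts in GFP replicates 42, 43 and 46 and none in CAAHR muscles. Of 9 macrophage genes edgeR called 0, with 7 at an unadjusted p under 0.05, DESeq2 6 and limma-voom 1 (24.8 to 42.4 CPM against 49.7 to 106 CPM). Of 7 adipocyte genes 2 fell, with overlapping sums (108 to 174 CPM against 128 to 257 CPM). Fabp4 was the largest part of these sums, with means of 103.9 CPM in CAAHR muscles and 106.1 CPM in GFP muscles. The overlap of the sums therefore says little about the other genes of the list. The median log2 fold change of these 7 was -2.00, and 1 of them had a positive value. In bulk muscle, fewer cells of a type and less RNA per cell cannot be told apart. EdgeR called 0 endothelial, 0 fibroblast and 0 Schwann cell genes of 8 each, with 1, 1 and 2 at an unadjusted p under 0.05. DESeq2 called 0, 1 and 2 of them and limma-voom 0, 0 and 1. Sums overlapped for the 3 lists (199 to 279 against 210 to 262 CPM, 392.3 to 766 against 575 to 723 CPM, and 50.5 to 83.4 against 81.0 to 139 CPM).

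Nampt is known as a clock-controlled gene, so clock genes were listed as well. Among them Bhlhe40 (log2 fold change -0.68) and Hlf (-0.52) fell. Arntl and Clock had log2 fold changes of 0.04 and 0.16, and neither passed.

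Naprt had the smallest p of the 10 genes, at place 130 of 15847. The genes whose pattern over the 6 libraries was most like it, by the root mean square difference of mean-centred log2 CPM, were 0610009E02Rik (0.0858), Gm11613 (0.101), Elf3 (0.115), Ypel4 (0.130) and Anxa4 (0.133). These 5 were the nearest of 15846 genes and were chosen by that measure, so their direction follows from the choice.

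**Figure D5:**
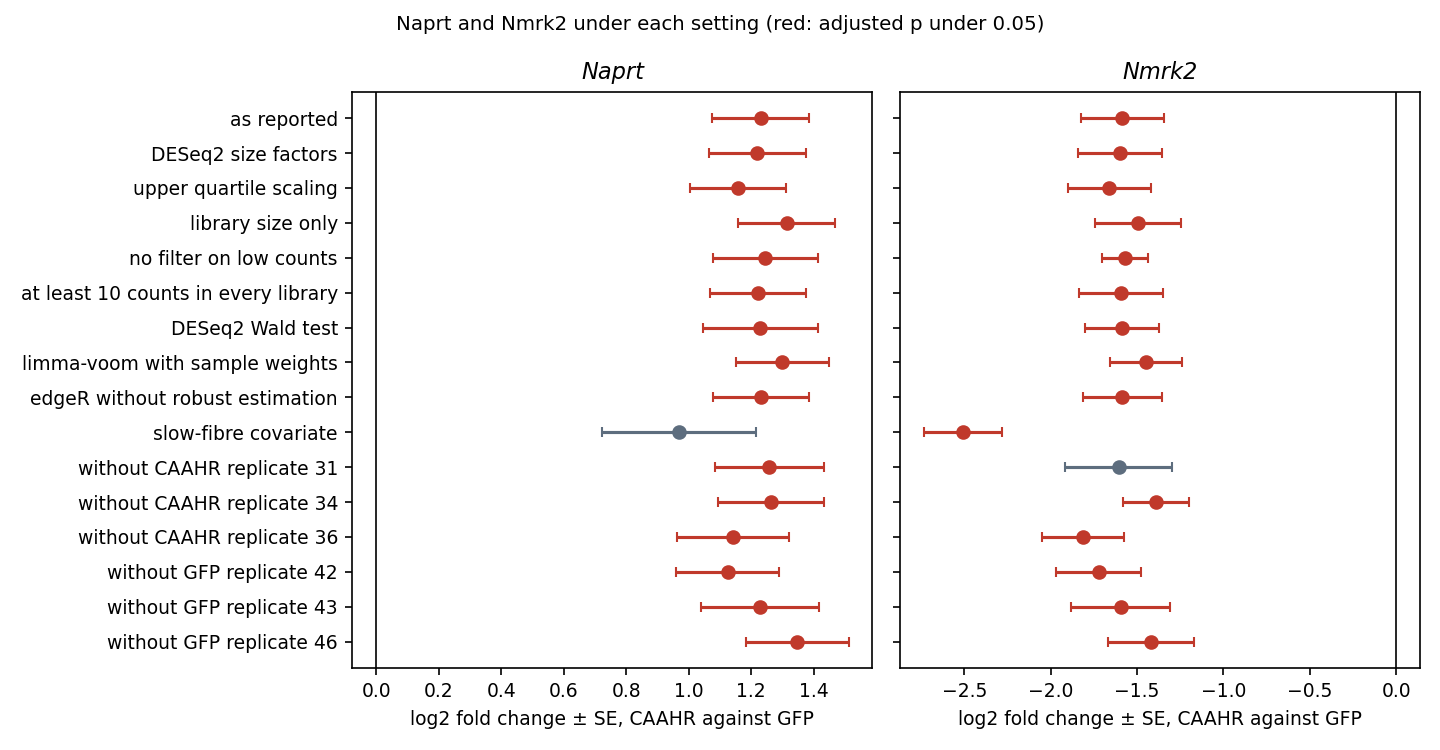
Log2 fold change ± SE, CAAHR against GFP (x axis), of Naprt and Nmrk2 as reported and under 15 alternatives (y axis), with adjusted p under 0.05 in red. All values stay on 1 side of 0, between 0.97 and 1.35 for Naprt and between -2.51 and -1.39 for Nmrk2.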

How the data were processed

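Gastrocnemius RNA with poly(A) tails was sequenced from both ends. Per the labels and methods, the authors trimmed reads with Trimmomatic 0.36, aligned them to mouse GRCm38 with STAR 2.5.2b and counted unique exon reads per gene with featureCounts. The deposited values were raw counts, with 3 libraries per group and no pooling. Reads from overlapping exons may be lost or misassigned. Libraries took group and replicate from their titles. Whether each library came from its own animal is not in the labels, so p-values measure the spread between these libraries.

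The test used edgeR 4.0.16 in R 4.3.3 (filterByExpr, TMM, robust quasi-likelihood F test, Benjamini-Hochberg adjustment over 15847 genes). SEs were derived from the F statistic. No pair of replicates agreed within sampling noise (the smallest chi-square per degree of freedom was 21.6). Positions and exon lengths came from GENCODE release M21, which held 99.5% of the 49315 identifiers. Alternatives were other scalings and filters, DESeq2 1.42.0 (used by the authors), limma 3.58.1 voom, a slow-fibre covariate and leaving out each library. The fit was also run on simulated data, whose outcome is not given here, and no statement above rests on it. No table columns were left unused.

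The 10 genes and the lists were chosen with earlier results of these data known. Named were the 10 genes, every called gene and the gene with the smallest p of each other NAD list, Ahr and Cyp1a1, and the 5 genes nearest in pattern to the gene with the smallest p. Nadsyn1, Kynu, Nnmt, Nt5e, Pnp, Slc29a1, Slc25a51, Sirt2, Sirt5, Ppargc1a, Parp1, Cd38, Idh2 and Nnt were named from those lists after their values were seen. The same holds for Mpo, Gzmb, Dmd, Acta1, Ckm, Fabp4, Myh1, Myh2 and the clock genes from the other lists. A result of the clock gene list is not reported here.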

Additional observations from a re-analysis of the deposited data

How the results depend on the processing

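No paired analysis was possible because no replicate number occurs in both groups. Of 150 checks of the 10 genes, 138 kept direction and side of the threshold, 2 kept direction but lost the call, and 10 reversed. The 2 were Nmrk2 without CAAHR replicate 31 (-1.61, with a range from -1.82 to -1.39 over the 6 fits that left out a library) and Naprt with the slow-fibre covariate (0.97), so the count of called genes among the 10 was 1 instead of 2 there, and from 1 to 2 with a library left out. The 10 reversals were of genes near 0 that no setting called. With upper quartile scaling Nmnat1 was at -0.0110, Nmnat3 at -0.0452 and Nadk2 at -0.0607, with limma-voom Nadk2 was at -0.0480, and with the slow-fibre covariate Nmrk1 was at 0.10. With a library left out, values ran from -0.103 to 0.0873 for Nadk2, from -0.00328 to 0.0519 for Nmnat3 and from -0.214 to 0.0473 for Sirt3.

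Over all genes, 1205 were called as reported, 2470 without a filter on low counts, 1932 with DESeq2, 439 with the slow-fibre covariate and from 530 to 1727 with a library left out (694 without CAAHR replicate 31, 530 without 36, 701 without GFP replicate 43 and 604 without 46). The share of lower calls was 60.1% as reported, 73.4% with upper quartile scaling and 40.7% with library size only. Called genes for precursor handling, 1 as reported, were 2 with upper quartile scaling, 2 with DESeq2, 4 without a filter and from 0 to 2 with a library left out. Consumers, 4 as reported, were 2 with library size only, 1 with the covariate and from 2 to 4 with a library left out. NADPH genes, 1 as reported, were 2 without a filter, 2 with DESeq2, 3 with limma-voom, 0 with the covariate and from 0 to 4 with a library left out. Sirtuin partners, 0 as reported, were 1 with library size only, 2 with DESeq2, 2 without a filter, 1 with limma-voom and from 0 to 2 with a library left out. With the longest transcript as length, 4 of the 10 genes changed place in the CAAHR order of levels and 5 in the GFP order. The cause of these differences was not tested. Depth was ample for the 10 genes, each with at least 150 counts in every library, and the 3 libraries per group limit the precision.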
